A study of Mus musculus with 8 samples.

Results

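A set of 10 genes known as targets of YAP or of serum response factor (SRF) was followed in mouse embryonic stem cell lines that differ at Gtf2i or Hprt. They were Ccn1, Ccn2, Thbs1, Amotl2, Ankrd1, Acta2, Actg2, Tagln, Cnn1 and Myl9, which is 10 of the 18193 genes that a single symbol names on the array. Members were found by symbol, through 17 probe sets, and they were selected on measured values, with differences of these same arrays between the 4 groups in view, so their differences are given as a description with no test. The measurements were log2 normalized intensities from 8 Affymetrix mouse expression arrays of 45101 probe sets, 2 per group. A gene is given here by its brightest probe set, and a gene counted as tested when it lay above the 40th percentile of an array (log2 5.35 on average) on at least 2 arrays. Of all 18193 genes 13819 passed, and so did the 10 members, 9 of them on all 8 arrays and Actg2 on 6.

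The "Gtf2i Mutant line", called the exon 2 mutant here, was a gene-targeted line derived from R1 with the genotype Δexon2/+. The "GTF2iTrap line", called the trap line, was a gene-trap line derived from AB2.2 cells with the genotype HPRT -/-:GTF2I +/-. The Hprt knockout (HPRTKO) cells had the genotype HPRT -/-, which the trap line shares, and the wild-type cells carried neither change, with no parental line named in the labels. Every culture had LIF and Knockout Serum Replacement in Knockout DMEM, on a monolayer of feeder cells. Each group is 1 line, so a mutation cannot be told apart from other differences between lines, and no batch is given in the labels. Both samples of a group are titled biological replicates, but nothing says that they came from separate cultures, so the spread between them may be technical.

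YAP and its relative TAZ (Wwtr1) enter the nucleus when the Hippo kinases Lats1 and Lats2 are inactive, bind TEAD factors on DNA and switch on genes such as Ccn1, Ccn2, Amotl2 and Ankrd1. SRF binds a short element called the CArG box, and with the MRTF coactivators, which are released when actin is assembled into filaments, it switches on genes of actin and of the contractile apparatus. Both routes respond to cell spreading and tension, share target genes, and are known for high activity in fibroblasts and smooth muscle cells.

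The promoters are shown so that the letters TEAD factors and SRF are known to read can be looked for in them. RefSeq promoters (mouse build GRCm38.p6, 250 bases before the gene's start) were at hand for 6 of the 10 members, Acta2, Amotl2, Ankrd1, Ccn1, Cnn1 and Myl9. Both strands were searched for the TEAD motif GGAATG, which reads as CATTCC on the opposite strand. The CArG box was searched in its strict form only: CC, 6 letters that are each A or T, and GG. Exact matches are in capitals below. A CArG box with a changed letter was not looked for and stays in lower case. The Ccn1 promoter (chr3:145649986-145650235, minus strand) held 1 TEAD motif, 103 to 98 bases before the start. That of Amotl2 (chr9:102717554-102717803, plus strand) held 1, 65 to 60 bases before the start, and that of Acta2 (chr19:34255374-34255623, minus strand) held 1, 146 to 141 bases before it. Ankrd1 (chr19:36119845-36120094, minus strand) held 2 TEAD motifs, 210 to 205 and 123 to 118 bases before the start. The strict CArG box was found in the Myl9 promoter (chr2:156775214-156775463, plus strand), 161 to 152 bases before the start. Cnn1 (chr9:22099003-22099252, plus strand) held neither set of letters in this window. Of 32851 RefSeq mouse promoters of the same length, 12.6% held the TEAD motif, 1.47% the CArG box and 0.186% both. None of the sequences shown held both motifs, and a match is a run of letters, not a measured binding site.
Ccn1: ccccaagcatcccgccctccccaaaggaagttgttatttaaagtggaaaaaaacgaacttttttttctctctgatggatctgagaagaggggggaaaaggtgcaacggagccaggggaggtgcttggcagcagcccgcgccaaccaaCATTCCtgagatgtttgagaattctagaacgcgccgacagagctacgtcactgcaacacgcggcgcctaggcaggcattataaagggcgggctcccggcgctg
Amotl2: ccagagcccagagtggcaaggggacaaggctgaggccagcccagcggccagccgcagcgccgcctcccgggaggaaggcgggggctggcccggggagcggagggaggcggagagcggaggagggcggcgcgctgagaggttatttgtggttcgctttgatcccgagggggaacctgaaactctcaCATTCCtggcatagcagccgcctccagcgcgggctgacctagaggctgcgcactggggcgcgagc
Ankrd1: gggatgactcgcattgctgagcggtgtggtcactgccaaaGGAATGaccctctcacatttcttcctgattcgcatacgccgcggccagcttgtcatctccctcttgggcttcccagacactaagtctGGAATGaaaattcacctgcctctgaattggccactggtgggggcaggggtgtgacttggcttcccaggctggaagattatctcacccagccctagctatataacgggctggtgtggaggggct
Acta2: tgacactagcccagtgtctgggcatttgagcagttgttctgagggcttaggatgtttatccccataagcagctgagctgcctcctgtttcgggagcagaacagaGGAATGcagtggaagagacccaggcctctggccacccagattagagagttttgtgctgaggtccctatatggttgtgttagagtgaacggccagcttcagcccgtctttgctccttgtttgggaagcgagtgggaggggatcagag
Myl9: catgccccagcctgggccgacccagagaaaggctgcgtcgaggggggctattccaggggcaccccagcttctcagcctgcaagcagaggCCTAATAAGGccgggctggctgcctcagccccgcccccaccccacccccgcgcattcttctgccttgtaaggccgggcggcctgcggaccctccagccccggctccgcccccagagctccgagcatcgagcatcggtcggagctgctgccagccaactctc

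In all 10 genes the wild-type arrays were the highest, and in no gene did the arrays of any 2 groups overlap. The share of all genes without any overlap was not counted, so nothing is read from that. Separation was common: 52.1% of all genes tested had the exon 2 mutant apart from wild-type and the trap line apart from the Hprt knockout, in opposite directions. Wild-type was the highest group for 19.7% of all genes tested. The 10 genes then fell into 3 orders below wild-type. Ccn1, Ccn2 and Amotl2 were lowest in the trap line, although for Ccn1 the trap line and the Hprt knockout changed places when the arrays were renormalized by cyclic loess. Ankrd1, Acta2, Actg2, Tagln, Cnn1 and Myl9 were lowest in the Hprt knockout, with the trap line next and the exon 2 mutant above it. Thbs1 alone stood higher in the trap line than in the exon 2 mutant, and was lowest in the Hprt knockout. The SD within groups, pooled over the 4 groups, was 0.0199 to 0.108 on the log2 scale, which is smaller than each of the gaps between neighbouring groups.

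The secreted matricellular proteins come first. Ccn1 (CYR61), which binds integrins and is a classical YAP target, had log2 levels of 10.07 and 10.003 in the exon 2 mutant, 9.39 and 9.34 in the trap line, 9.55 and 9.46 in the Hprt knockout and 12.73 and 12.68 in wild-type. Ccn2 (CTGF), its relative and a modulator of growth factor signals in the matrix, had 11.57 and 11.63 in the exon 2 mutant, 10.65 and 10.72 in the trap line, 11.08 and 10.97 in the Hprt knockout and 14.40 on both wild-type arrays. Both genes stood far above the other lines in wild-type, and those other lines lay close to one another. The gap between the trap line and the Hprt knockout was the smallest of any pair in both genes, at 0.14 in Ccn1 and 0.34 in Ccn2.

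Thbs1 (thrombospondin 1), a matrix protein that binds cell surfaces and can activate latent TGF-beta, had log2 levels of 11.29 and 11.37 in the exon 2 mutant, 11.53 and 11.63 in the trap line, 8.48 and 8.27 in the Hprt knockout and 13.53 and 13.57 in wild-type. The Hprt knockout arrays were low by 2.95 against the nearest group, the exon 2 mutant, and both Gtf2i lines stood between them and wild-type.

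Amotl2 is a scaffold of the angiomotin family that holds YAP in the cytoplasm and is itself a YAP target. Its log2 levels were 10.14 and 10.11 in the exon 2 mutant, 9.55 and 9.40 in the trap line, 9.95 and 9.98 in the Hprt knockout and 11.21 and 11.20 in wild-type. It had the narrowest range of the 10 genes, 1.74 log2 units between the trap line and wild-type. Ankrd1, an ankyrin-repeat protein of the nucleus and of muscle fibres, had levels of 7.49 and 7.55 in the exon 2 mutant, 6.77 and 6.82 in the trap line, 6.48 and 6.54 in the Hprt knockout and 9.93 and 9.95 in wild-type. As with Ccn1 and Ccn2, the lines other than wild-type lay close together.

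Among the contractile genes, Acta2 encodes the smooth muscle alpha actin of muscle and activated fibroblasts. Its log2 levels were 12.93 and 12.96 in the exon 2 mutant, 12.52 and 12.43 in the trap line, 10.31 and 10.51 in the Hprt knockout and 14.04 and 14.02 in wild-type. Actg2, the smooth muscle gamma actin, had 7.46 and 7.45 in the exon 2 mutant, 6.74 and 6.66 in the trap line, 5.05 and 4.77 in the Hprt knockout and 8.74 and 8.81 in wild-type. Its Hprt knockout values lay below the filter level on both arrays, so its difference there runs into the dim end of the array. The name of the Acta2 probe set marks probes shared with other transcripts, and since the actin genes are nearly identical in sequence, signal from related actins cannot be told apart from Acta2.

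Tagln (transgelin), which binds actin filaments, had log2 levels of 12.13 and 12.17 in the exon 2 mutant, 11.80 and 11.77 in the trap line, 10.24 and 10.21 in the Hprt knockout and 13.49 on both wild-type arrays. Cnn1 (calponin 1), which binds actin and restrains myosin, had 8.02 and 8.05 in the exon 2 mutant, 6.95 and 6.87 in the trap line, 6.09 and 5.95 in the Hprt knockout and 10.34 and 10.35 in wild-type. Myl9, the regulatory light chain through which myosin is switched on, had 10.37 and 10.51 in the exon 2 mutant, 10.14 and 10.05 in the trap line, 7.86 and 7.84 in the Hprt knockout and 12.10 on both wild-type arrays. Unlike Ccn1 and Ccn2, the contractile genes split the lines other than wild-type, with the Hprt knockout well below both Gtf2i lines in Acta2, Actg2, Tagln and Myl9.

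**Figure D1:**
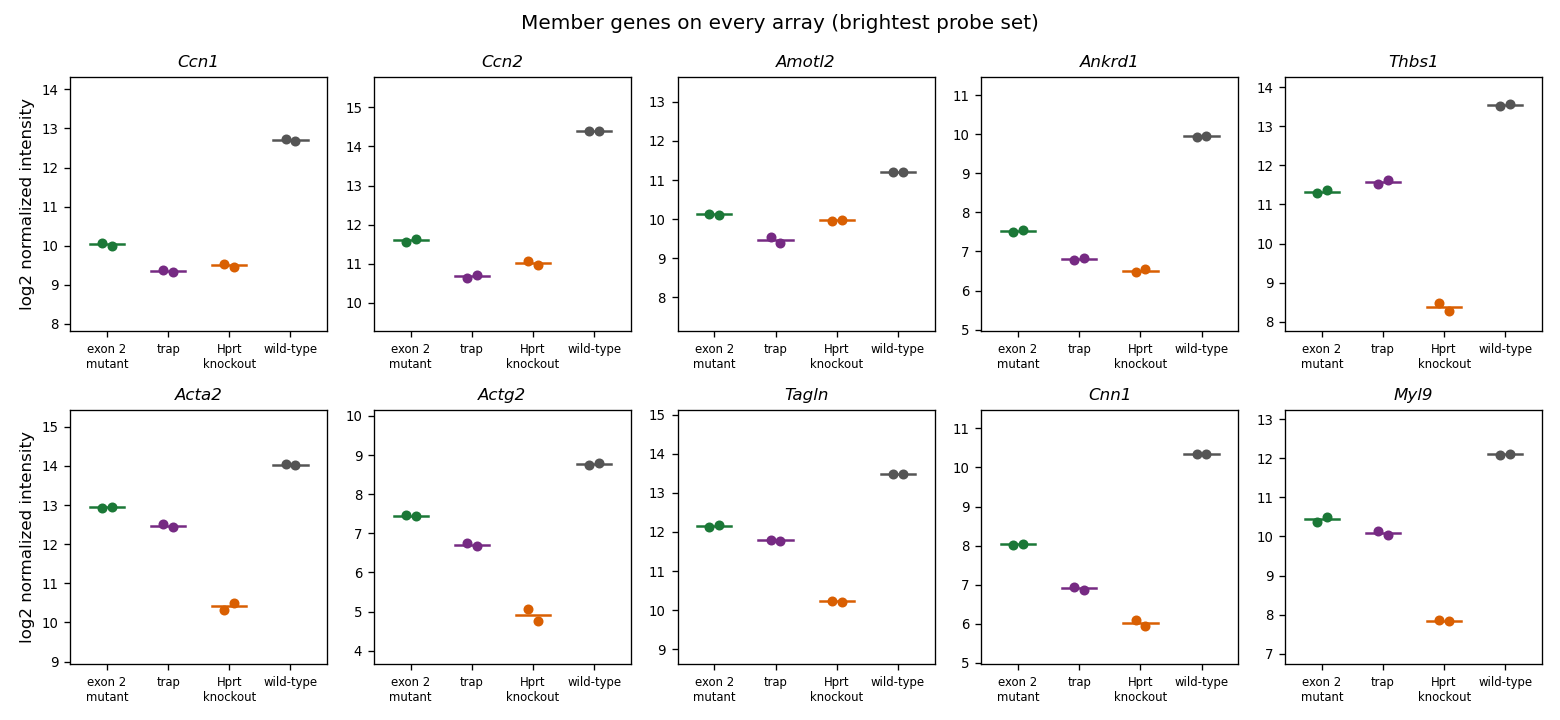
Log2 normalized intensity (y axis, own range in each panel with a common span) of the 10 genes on every array, by group (x axis). Points are arrays and lines are group means; the wild-type points are the highest in every panel, and the Hprt knockout points are far below the others in Thbs1, Acta2, Actg2, Tagln and Myl9.

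In the exon 2 mutant against wild-type, the fall was largest in Ccn2 and Ccn1. Ccn2 stood at -2.80 ± 0.06 on the log2 scale (standard error of the fit, n = 2 each), a 6.94-fold lower level, and Ccn1 at -2.67 ± 0.06, 6.36-fold lower. Ankrd1 was 5.35-fold lower, Cnn1 4.95-fold, Thbs1 4.65-fold and Myl9 3.15-fold. The smallest differences were those of Tagln (2.52-fold lower), Actg2 (2.50-fold), Acta2 (2.12-fold) and Amotl2 (2.12-fold). All 10 passed limma's adjusted p threshold of 0.05 with at least a 2-fold lower level, against 23.1% of all genes tested called lower and 2.47% called at least 2-fold lower. Since the same contrast chose the genes, nothing is read from that count. The median over the 10 genes was -1.94, beside 0.0268 over all genes tested.

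Because the cells grew on feeders, 24 markers of feeder fibroblasts were read beside the 10 genes. Their mean log2 level on an array was 11.41 to 11.44 in the exon 2 mutant, 11.62 on both trap arrays, 7.26 on both Hprt knockout arrays and 11.83 to 11.86 in wild-type. The 2 brightest, the collagen genes Col1a2 and Col3a1, stood at 14.60 and 14.57 on the first exon 2 mutant array and at 14.77 each on the first wild-type array. In the exon 2 mutant against wild-type the markers had a median of -0.468 and ran from -0.94 (Pdgfrb) to 1.01 (Snai2), with 21 lower and 1 higher at the threshold. Each of the 10 genes lay below the lowest of the 24 markers, the nearest being Amotl2 at -1.08 and Acta2 at -1.08. Since the genes were chosen with this contrast in view, nothing is read from that position. The part of the feeder signal in these values was not tested. In bulk RNA, fewer cells of a type and less RNA per cell cannot be told apart.

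In the trap line against wild-type, Ccn2 was 13.1-fold lower (-3.71 ± 0.06), Cnn1 10.8-fold lower (-3.43 ± 0.06) and Ccn1 10.1-fold lower (-3.34 ± 0.06). Ankrd1 was 8.84-fold lower, Actg2 4.20-fold, Myl9 4.01-fold and Thbs1 3.91-fold. Amotl2 was 3.33-fold lower, Tagln 3.26-fold and Acta2 2.94-fold. All 10 were called lower and at least 2-fold lower, against 14.6% and 1.87% of all genes tested, a count from which nothing is read for the same reason. The median of the 10 was -2.04, beside 0.0453 over all genes. The 24 feeder markers had a median of -0.151 in this comparison and ran from -1.22 (Col1a1) to 0.67 (Pdgfra), and again each of the 10 genes lay below the lowest marker. Nothing is read from that position either, as the choice of genes had these groups in view. This comparison also holds the Hprt mutation and any difference of parental line.

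In the Hprt knockout against wild-type, Thbs1, Cnn1, Myl9, Actg2 and Acta2 fell furthest. Thbs1 was 36.0-fold lower (-5.17 ± 0.08), Cnn1 20.0-fold lower (-4.32 ± 0.06), Myl9 19.0-fold lower and Actg2, which was below the filter level there, 14.5-fold lower. Acta2 was 12.3-fold lower, Ankrd1 10.8-fold, Ccn2 10.3-fold, Tagln 9.60-fold and Ccn1 9.18-fold. Amotl2 was 2.36-fold lower. All 10 were called lower and at least 2-fold lower, against 25.1% and 10.8% of all genes tested, and here too nothing is read from the count. The median was -3.52 beside 0.160. Here the 24 feeder markers were all called lower, with a median of -4.70 and a range of -7.23 to -1.90. Of the 10 genes, 9 lay inside that range and Amotl2 lay above it. The part of the feeder signal in these values was not tested, and the 3 comparisons against wild-type share the same 2 wild-type arrays.

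**Figure D2:**
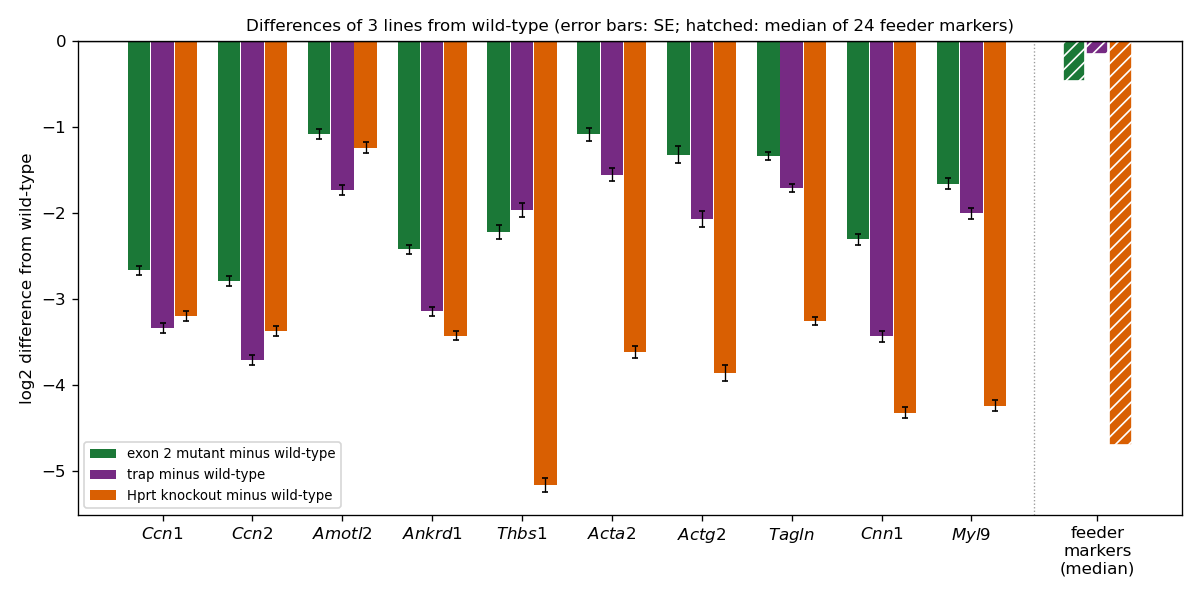
Log2 difference from wild-type (y axis) of each gene (x axis) in the exon 2 mutant, the trap line and the Hprt knockout, with bars for the difference and error bars for its standard error. Hatched bars give the median of the 24 feeder markers, -0.468 in the exon 2 mutant, -0.151 in the trap line and -4.70 in the Hprt knockout.

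The trap line and the Hprt knockout share the HPRT -/- genotype, so by their labels this pair differs in the gene trap at Gtf2i and not in Hprt, although the Hprt signal was 10.74 in the trap line and 10.04 in the Hprt knockout. Ccn1, Ccn2 and Amotl2 parted from the other 7 genes here. Thbs1 was 9.20-fold higher in the trap line (3.20 ± 0.08), Myl9 4.73-fold higher (2.24 ± 0.06) and Acta2 4.19-fold higher (2.07 ± 0.07). Actg2 was 3.46-fold higher and Tagln 2.94-fold higher, while Cnn1 was 1.85-fold higher and Ankrd1 1.22-fold higher. Ccn2 was 1.27-fold lower (-0.34 ± 0.06) and Amotl2 1.41-fold lower (-0.49 ± 0.06). Ccn1 had a difference of -0.14 ± 0.06, which did not pass the threshold, and which was 0.02 when the arrays were renormalized by cyclic loess.

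In counts, 7 genes were called higher and 2 lower, against 26.6% and 41.8% of all genes tested. At least 2-fold, 5 were called higher and 0 lower, against 10.3% and 4.95%. The groups of this pair were in view when the genes were chosen, so these counts are a description and nothing is read from them. The median of the 10 genes was 1.22, beside -0.127 over all genes. The 24 feeder markers were all called higher, with a median of 4.13 and a range of 2.22 to 7.22. Only Thbs1 and Myl9 lay inside that range, and the other 8 genes lay below its lowest marker, which is a description too. The part of the feeder signal in the higher values was not tested.

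**Figure D3:**
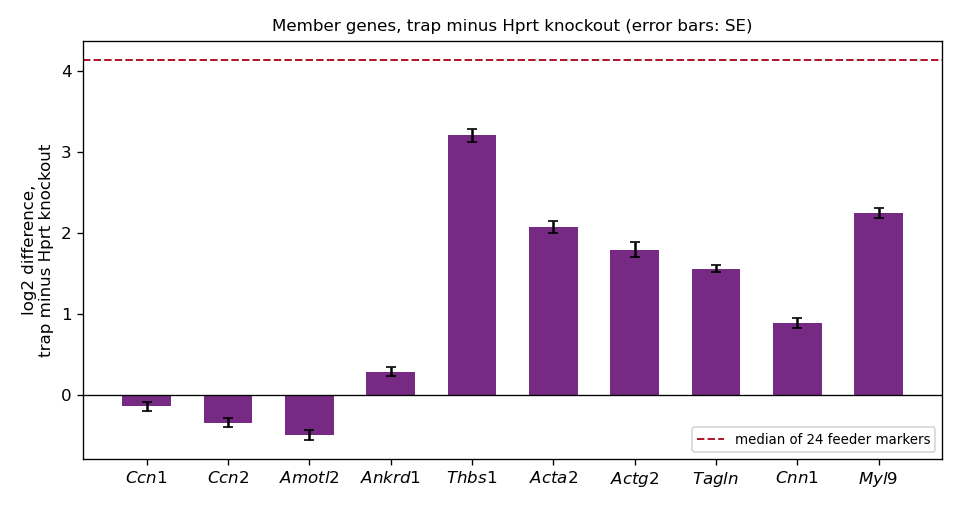
Log2 difference of the trap line minus the Hprt knockout (y axis) for each of the 10 genes (x axis), with standard errors, and the median of the 24 feeder markers as a dashed line at 4.13. Ccn1 (0.02 after cyclic loess), Ccn2 and Amotl2 lie below 0 and all genes lie below the dashed line.

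Other probe sets of the same genes were read to see whether the pattern rests on 1 set of probes. The name of the brightest Ccn1 probe set marks probes that may bind other transcripts too. Ccn1 had 3 further probe sets, with differences of -2.74 to -2.84 in the exon 2 mutant against wild-type and of -3.24 to -3.61 in the Hprt knockout against wild-type. Between the trap line and the Hprt knockout its 4 probe sets ran from -0.56 to 0.00, so that no common size was seen. The second probe set of Ankrd1 gave -2.41 in the exon 2 mutant against wild-type and 0.20 in the trap line against the Hprt knockout. That of Thbs1 gave -2.54 and 2.95 in the same comparisons.

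For Acta2 the other probe sets were dim. Its second probe set lay between 3.97 and 4.55 on the exon 2 mutant, trap and Hprt knockout arrays, under the filter level, and at 7.11 and 7.06 on the wild-type arrays, so its -2.62 in the exon 2 mutant against wild-type runs into the dim end of the array. Between the trap line and the Hprt knockout it could show no change. The third was below the filter level on all 8 arrays. With the mean over its probe sets, which takes in these dim ones, Acta2 stood at 0.82 in the trap line against the Hprt knockout, still higher in the trap line but by less than 2-fold.

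The genes most like each member were found by the distance between the 4 group means, each centred on its own mean. All tested genes outside the list were searched, except those with names in the style of clones, predicted loci or microRNAs. This name rule also left out any gene whose symbol starts with C or D followed by a digit. Ccn1 and Ccn2 were nearest to each other, at a root mean square distance of 0.134 log2 units, and Gjb2, a gap junction protein, was the nearest other gene to Ccn1 (0.166), Ccn2 (0.238) and Ankrd1 (0.337). Gjb2 had means of 5.27 in the exon 2 mutant, 4.70 in the trap line and 5.14 in the Hprt knockout, all under the filter level, and 7.94 in wild-type, so that its order below wild-type is that of dim signal. Amotl2 was nearest to Gadd45b (0.0422), a stress-response gene, whose means were 9.09 in the exon 2 mutant, 8.41 in the trap line, 8.82 in the Hprt knockout and 10.15 in wild-type. Tgfb2, a secreted growth factor, was nearest to both Actg2 (0.163) and Myl9 (0.128). Acta2 was nearest to the chemokine gene Cxcl9 (0.101), whose mean of 4.37 in the Hprt knockout fell short of the filter level. Tagln was nearest to Dnajb4 (0.143), a co-chaperone of the heat shock family, Thbs1 to Vasn (0.174), a surface protein that binds TGF-beta, and Cnn1 to Lurap1l (0.319). Within the list, Thbs1 and Amotl2 were the farthest apart, at 1.56. These distances rest on 4 means and describe the shape of the pattern only.

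The other genes of both routes were read from 3 lists, with a few regulators of actin and SRF beside them, written with earlier results of these arrays known, with limma's adjusted p over all genes tested. Beside each list stand the feeder marker medians of -0.468 in the exon 2 mutant, -0.151 in the trap line and -4.70 in the Hprt knockout against wild-type, and of 4.13 in the trap line against the Hprt knockout. The gene for SRF itself was lower in all 3 lines than in wild-type. Its log2 levels were 8.24 and 8.04 in the exon 2 mutant, 8.22 and 8.29 in the trap line, 8.22 and 8.16 in the Hprt knockout and 10.02 and 10.04 in wild-type. Srf was lower by limma's test in the exon 2 mutant (-1.89 ± 0.07, adjusted p = 7.82e-06), in the trap line (-1.78 ± 0.07, adjusted p = 1.59e-05) and in the Hprt knockout (-1.84 ± 0.07, adjusted p = 9.29e-07), each against wild-type. The trap line against the Hprt knockout stood at 0.06 in Srf. The part of the feeder signal in the Srf values was not tested. A second Srf probe set was lower too, by less: it stood at -0.86 (exon 2 mutant), -0.85 (trap line) and -0.66 (Hprt knockout) against wild-type. In the trap line against the Hprt knockout that second probe set was at -0.19. The name of the first Srf probe set marks probes shared with other transcripts, as for Acta2.

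Other SRF targets of the cytoskeleton numbered 27, all tested. All 27 were called lower in the exon 2 mutant against wild-type and all 27 in the trap line against wild-type, with medians of -0.914 and -0.855. In the Hprt knockout against wild-type 26 were lower, with a median of -2.03, and the one not called was the skeletal actin Acta1 (0.05). In the trap line against the Hprt knockout 21 were higher and 1 lower, with a median of 0.555, and the lower one was again Acta1 (-0.96). Of all genes tested, the share called lower was 23.1% in the exon 2 mutant, 14.6% in the trap line and 25.1% in the Hprt knockout, each against wild-type, and 26.6% were called higher and 41.8% lower in the trap line against the Hprt knockout. Of the 27, 11 were at least 2-fold lower in the exon 2 mutant and 12 in the trap line, each against wild-type.

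In the exon 2 mutant against wild-type, Vcl, the vinculin of focal adhesions, was lower by limma's test at -1.78 ± 0.05 (adjusted p = 3.05e-06). Fhl2, a LIM-domain cofactor, was lower at -1.73 ± 0.06 (adjusted p = 6.82e-06), Pdlim5, a LIM protein of actin fibres, at -1.52 ± 0.06 (adjusted p = 6.62e-06) and Mylk, the kinase that activates Myl9, at -1.59 ± 0.23 (adjusted p = 0.00108). Vcl, Fhl2 and Mylk were lower in the trap line against wild-type too, at -1.66, -1.67 and -1.63, as was Fhl1, another LIM-domain protein, at -1.99 ± 0.05 (limma adjusted p = 3.52e-06). The filamin-interacting Filip1l was 3.34 ± 0.05 higher in the trap line when set against the Hprt knockout (limma adjusted p = 1.25e-08). Tpm2, a tropomyosin, was higher in that pair by 2.86 and Cald1, caldesmon, by 1.77.

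For the MRTF coactivators the differences from wild-type were smaller than those of Srf in all 3 lines. Mrtfa was at -0.09 in the exon 2 mutant against wild-type, which missed the threshold, and at -0.48 in the Hprt knockout against wild-type. Mrtfb was 0.50 ± 0.06 higher in the trap line when set against the Hprt knockout (limma adjusted p = 0.00018), a call that was lost with the mean of its probe sets. Ssh1, the phosphatase that activates the actin-severing cofilin, was at -0.59 in the exon 2 mutant and -0.60 in the trap line against wild-type, but at 0.03 in the exon 2 mutant with the mean of its probe sets. Mical2, which oxidises nuclear actin and so frees MRTF, was at -0.53 in the exon 2 mutant and -0.50 in the trap line against wild-type. The formin gene Diaph3 was lower in the trap line against the Hprt knockout, at -0.68.

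The Hippo core and the partners of YAP were mixed. Of 22 tested, 4 were higher and 12 lower in the exon 2 mutant against wild-type (median -0.217), 6 higher and 9 lower in the trap line against wild-type (median -0.0216), 5 higher and 16 lower in the Hprt knockout against wild-type (median -0.458), and 14 higher and 5 lower in the trap line against the Hprt knockout (median 0.363). Of all genes tested, 32.5% were called higher and 23.1% lower in the exon 2 mutant, 26.5% higher and 14.6% lower in the trap line and 46.4% higher and 25.1% lower in the Hprt knockout, each against wild-type. In the trap line against the Hprt knockout these shares were 26.6% and 41.8%. With the mean of all probe sets the Hippo median was -0.191 (12 lower) in the Hprt knockout against wild-type and 0.216 in the trap line against the Hprt knockout. The genes called higher then numbered 2 in the exon 2 mutant and 3 in the trap line, each against wild-type. Yap1 was 0.20 ± 0.05 higher in the exon 2 mutant than in wild-type by limma's test (adjusted p = 0.0185), and stood at -0.02 in the trap line against wild-type. Wwtr1, which encodes TAZ, was -0.32 ± 0.05 in the exon 2 mutant and 0.45 ± 0.05 in the trap line, each against wild-type (limma adjusted p = 0.00241 and 0.000875). In the Hprt knockout against wild-type Yap1 stood at -0.32 and Wwtr1 at -1.18. In the trap line against the Hprt knockout Yap1 stood at 0.30 and Wwtr1 at 1.62.

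The kinase gene Lats2, which is both a brake on YAP and a YAP target, was lower in all 3 lines. The exon 2 mutant stood at -1.86 ± 0.09 against wild-type, with -1.65 ± 0.09 in the trap line and -3.75 ± 0.09 in the Hprt knockout (limma adjusted p = 1.6e-05, 3.69e-05 and 7.59e-08). Vgll3, a cofactor that binds TEAD, differed from wild-type by -2.24 ± 0.12 in the exon 2 mutant, -2.11 ± 0.12 in the trap line and -4.03 ± 0.12 in the Hprt knockout (limma adjusted p = 1.91e-05, 3.79e-05 and 1.84e-07). Frmd6, an upstream activator of the pathway, was at -0.92, -1.04 and -2.51 in the same order of lines. Amot, the founding angiomotin, was at -0.99 in the exon 2 mutant against wild-type and at 1.64 in the trap line against the Hprt knockout. Lats1, the other kinase of the pair, was at -1.20 in the Hprt knockout against wild-type, and Wwc2, a relative of the upstream regulator KIBRA, at -0.97 in the trap line against wild-type.

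Of 18 other YAP targets tested, 2 were higher and 12 lower in the exon 2 mutant against wild-type (median -0.540), and 3 higher and 7 lower in the trap line against wild-type (median -0.0994). In the Hprt knockout against wild-type 2 were higher and 14 lower (median -1.05), and in the trap line against the Hprt knockout 13 were higher and 5 lower (median 0.875). All genes tested were called higher in 32.5% and lower in 23.1% of cases in the exon 2 mutant, 26.5% and 14.6% in the trap line and 46.4% and 25.1% in the Hprt knockout, each against wild-type, and 26.6% and 41.8% in the trap line against the Hprt knockout. F3, tissue factor, differed from wild-type by -2.16 ± 0.11 in the exon 2 mutant and -2.11 ± 0.11 in the trap line (limma adjusted p = 1.88e-05 and 3.41e-05). Crim1, a transmembrane regulator of BMP signals, was at -1.69, Igfbp3, a carrier of insulin-like growth factors, at -1.53 and Tgfb2 at -1.51 in the exon 2 mutant against wild-type. In the trap line against wild-type Tgfb2 stood at -1.81, Cdc42ep3, a septin organizer, at -1.24 and the kinase gene Nuak2 at -1.12. In the trap line against the Hprt knockout the receptor kinase gene Axl stood at 4.21 ± 0.06 (limma adjusted p = 8.97e-09), which lies inside the range of the feeder markers. So did Igfbp3 (3.31) and Rbms3 (2.76), an RNA-binding protein, while Nt5e (2.13), a nucleotidase of the cell surface, lay just below that range.

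**Figure D4:**
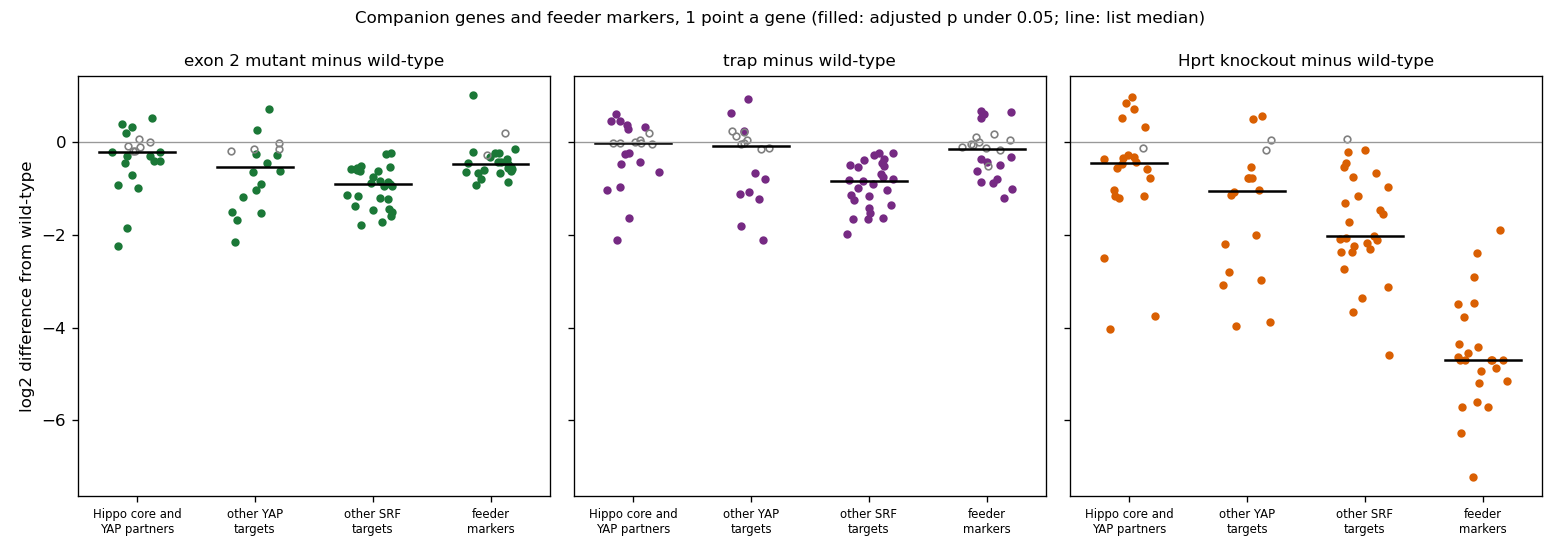
Log2 difference from wild-type (y axis, 1 point a gene) in the exon 2 mutant, the trap line and the Hprt knockout for 3 lists of companion genes and the 24 feeder markers (x axis). Filled points passed limma's adjusted p threshold, lines are medians, and the other SRF targets lie wholly below 0 in the exon 2 mutant and trap panels.

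The labelled cell type and other sources were checked by markers. The 10 stem cell markers averaged 12.28 to 12.33 in the exon 2 mutant, 12.33 to 12.36 in the trap line, 12.38 to 12.41 in the Hprt knockout and 12.00 on the wild-type arrays, with Dppa5a and Tdgf1 the brightest. The 7 smooth muscle markers, read because the contractile genes are best known from that tissue, averaged 5.81 to 5.90 in the exon 2 mutant, 5.49 to 5.59 in the trap line, 5.90 to 5.91 in the Hprt knockout and 6.16 to 6.21 in wild-type. Des and Ldb3 were the brightest of these, the muscle-defining Myh11 was at 5.26 and 5.05 in the exon 2 mutant and at 5.77 and 6.02 in wild-type, and Kcnmb1 and Pln did not pass the filter. The 9 cardiomyocyte markers averaged from 5.22 to 5.84 over all arrays, near the filter level, with Actn2 and Myl7 the brightest. Gtf2i averaged 10.48 in the exon 2 mutant, 10.09 in the trap line, 10.90 in the Hprt knockout and 10.12 in wild-type, so it was not lowest in the exon 2 mutant. A second Gtf2i probe set was lowest in wild-type, at 7.72 and 7.81. It stood at 7.91 and 7.92 in the trap line, 8.43 and 8.39 in the exon 2 mutant and 9.17 and 9.03 in the Hprt knockout. The remaining Gtf2i probe sets were dim. Where the Gtf2i probes lie against exon 2 or the trap is not known here. Hprt averaged 12.25 in the exon 2 mutant, 10.74 in the trap line, 10.04 in the Hprt knockout and 12.08 in wild-type. Arrays of 1 group correlated at 0.997 to 0.998 over all genes tested and arrays of different groups at 0.866 to 0.979.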

How the data were processed

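Total RNA of 8 samples was hybridised to Affymetrix arrays. The deposited log2 intensities came from RMA, which the authors ran (per the submitters' processing notes; version not given in the sources used here). RMA normalizes arrays by quantiles, which hides any shift shared by most genes. Array medians were log2 5.96 to 6.02, and the number of arrays limits the precision. The platform's own annotation named the probe sets: 34945 had 1 symbol, 932 several and 9160 none, besides 64 controls, and 0 symbols needed an update. The brightest probe set stood for a gene. Groups followed the sample titles. The 4 group means were estimated from all 8 arrays with limma 3.58.1 (lmFit, eBayes) in R 4.3.3, with residual degrees of freedom of 4 that moderation raised to 6.86, two-sided p-values and Benjamini-Hochberg adjustment over 13819 genes at 0.05. The script was tested on simulated data. With 2 arrays on each side, no exact test reaches a p under 0.333. The members and lists were chosen with earlier results of these data known. Named were all members, Gtf2i, Hprt, up to 4 genes past the threshold with the largest difference in each pathway list and comparison, the 2 brightest markers of a list and the nearest gene to each member. Yap1, Mrtfa, Acta1, Myh11, Kcnmb1, Pln and the markers at the ends of a range were also named, chosen after their values were seen. Alternatives changed the filter, the probe set, the normalization, the arrays in the fit, the moderation, the replicate number as a block and each array in turn. Of 25 feeder markers 24 were on the array by a single symbol. Stem cell, smooth muscle, cardiomyocyte, primitive endoderm and trophoblast markers were read as well. The counts of 1 gene list are not reported here.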

Additional observations from a re-analysis of the deposited data

Results flagged for a closer look

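In 7 of the 10 genes every exon 2 mutant array lay below every wild-type array. In the same 7 every trap array lay above every Hprt knockout array, so these comparisons had opposite signs. Their references differ: the Hprt knockout was the lowest group in all 7, and against wild-type both Gtf2i lines were lower in all 7. The genes were chosen with these groups in view, so nothing is read from the count. Taken as the effect in the exon 2 mutant minus the effect in the trap line, on the log2 scale, the gap was -5.42 for Thbs1, -3.90 for Myl9, -3.20 for Cnn1, -3.15 for Acta2, -3.11 for Actg2, -2.89 for Tagln and -2.71 for Ankrd1. The difference was not tested, and opposite directions of this kind were seen in 52.1% of all genes tested, with 20.1% lower in the exon 2 mutant and higher in the trap line as in these 7. The feeder markers lay at a median of -0.468 in the exon 2 mutant and 4.13 in the trap line in the same pair of comparisons.

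Of the 31 companion genes that the naming rule picked, 27 had opposite directions in the 2 comparisons, also untested, and 26 of these ran the same way as the 7 members. Of all genes tested these shares were 52.1% and 20.1%. The rule took called genes with the largest differences on these same arrays, so nothing is read from the counts. Among the Hippo genes the gap was -4.16 for Vgll3, -3.96 for Lats2, -2.63 for Amot, -2.39 for Frmd6, -1.94 for Wwtr1 and -1.13 for Lats1. Among the other YAP targets it was -4.84 for Igfbp3, -4.66 for Axl, -3.59 for Tgfb2, -3.41 for Rbms3, -3.02 for F3, -2.82 for Crim1 and -2.32 for Nt5e. For other named genes it was -2.47 for Rhoc, -1.60 for Ssh1, -0.78 for Rhob, -0.74 for Mrtfb, -0.66 for Mical2 and, the other way round, 1.08 for Diaph3. Among the other SRF targets it was -4.21 for Filip1l, -3.82 for Tpm2, -3.42 for Fhl2, -3.09 for Mylk, -2.87 for Vcl, -2.53 for Cald1, -2.08 for Pdlim5 and -1.64 for Fhl1.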

How the results depend on the processing

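Over 16 alternatives, no count of all called genes or of all called companion genes moved by more than 1.5 times, and no called difference of the 10 genes changed sign. With cyclic loess the genes called higher and lower were 3671 and 4028 in the exon 2 mutant (4485 and 3189 as deposited), 4689 and 4243 in the trap line against the Hprt knockout (3675 and 5774), 4710 and 4731 in the Hprt knockout (6409 and 3467) and 3034 and 2570 in the trap line against wild-type (3662 and 2011); it moved the median of all genes in the Hprt knockout against wild-type to 0.00431, against 0.160, and moved no member by more than 0.245. Companions called higher in the trap line against wild-type numbered 12 as reported, and 7 both with the mean of all probe sets and without the first trap array; the other YAP targets among them numbered 3, and 5 with trend and robust moderation. The Hippo median in that comparison, -0.0216 as reported, lay between -0.102 and 0.00664 and has no settled sign. With the mean of all probe sets Acta2 stood at -1.44 in the exon 2 mutant and -2.56 in the Hprt knockout, each against wild-type. Ccn1 in the trap line against the Hprt knockout, not called as reported, passed limma's threshold under 4 of the 16 alternatives. Leaving out 1 array moved no member by more than 0.143. Among the companions 3 differences changed sign: Ssh1 in the exon 2 mutant against wild-type (0.031, mean of all probe sets), Cdc42ep3 in the trap line against the Hprt knockout (0.00865, cyclic loess) and Diaph3 in the Hprt knockout against wild-type (-0.011, cyclic loess); the cause was not tested. Of 1980 companion values under the alternatives, 36 lost and 7 gained a call. Deviations of same-numbered arrays from their group means correlated at -0.275 to 0.175 between groups. Whether same-numbered arrays share a batch was not tested. With the replicate block the called genes numbered 7248, 9127, 9620 and 5170, against 7674, 9449, 9876 and 5673 without it. The called companions numbered 66, 66, 75 and 61, against 67, 69, 75 and 63. Both are in the order exon 2 mutant, trap against Hprt knockout, Hprt knockout, trap against wild-type. Signal near the filter level, as for Actg2 in the Hprt knockout, limits the size of a fold.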

Other observations

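Markers of other lineages were read on the same arrays. The 9 primitive endoderm markers averaged log2 6.95 to 7.03 in the exon 2 mutant, 7.56 to 7.61 in the trap line, 7.43 to 7.44 in the Hprt knockout and 7.55 to 7.61 in wild-type, and 7 of them were called lower and 0 higher in the exon 2 mutant against wild-type by limma, beside 23.1% lower and 32.5% higher among all genes tested. Their 2 brightest were Lamb1, a laminin chain, and Pdgfra, which is also a feeder marker. The 8 trophoblast markers averaged 5.91 to 6.14 in the exon 2 mutant, 5.93 to 5.99 in the trap line, 6.33 to 6.39 in the Hprt knockout and 5.79 in wild-type. Tfap2c and Eomes were the brightest. Tfap2c, also active in germ cells and naive stem cells, had levels of 9.42 and 9.19 in the exon 2 mutant, 8.33 and 8.24 in the trap line, 10.52 and 10.39 in the Hprt knockout and 8.16 and 8.20 in wild-type.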
